A study of Homo sapiens with 13 samples.

Results

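The 39 genes described here encode the machinery that copies DNA and the enzymes that make its building blocks, with 3 regulators that switch this machinery on. They were taken from the deposited count table by gene symbol, and all 39 of the 45744 genes listed there were found and had enough counts to be tested, as did 17252 genes in all. Expression was measured by RNA sequencing in HuT78, an established cell line of malignant T cells from Sézary syndrome, a cutaneous T cell lymphoma with tumor cells in the blood. Cells received chaetocin at 10 nM (4 libraries, replicates 1 to 4), F5446 at 10 nM (3 libraries, replicates 2 to 4), romidepsin at 1 µM (4 libraries, replicates 1 to 4) or the solvent DMSO (2 libraries, replicates 1 and 4), each for 72 h. Chaetocin is a fungal metabolite known as an inhibitor of histone H3 lysine 9 methyltransferases, F5446 is a code-named inhibitor of the same class of enzyme, and romidepsin inhibits histone deacetylases. All libraries come from this single line, so they carry no spread between patients.

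Before S phase, the origin recognition complex, CDC6 and CDT1 load the MCM2-7 ring onto DNA, and CDC45 and the GINS complex then join the ring to form the active helicase. Polymerase alpha with its primase starts each strand, polymerases delta and epsilon extend it on the PCNA clamp, which replication factor C loads, and FEN1 and LIG1 trim and join the fragments of the lagging strand. Most of these genes are known targets of the E2F factors, which are released at the G1/S transition when kinases bound to cyclins D and E phosphorylate the retinoblastoma protein.

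The start regions of 6 members are shown because several of the differences described concern them: E2F1, MCM2, CDC6, GINS1, CDT1 and RFC2. Each run is 150 bases long, from 120 bases before the RefSeq transcript start (GRCh38.p14) to 30 after it, read 5′ to 3′ on the gene's own strand. Capitals mark letters that match an E2F site in the forms TTTGGCGC, TTTCCCGC, TTTGCCGC or TTTCGCGC on either strand. E2F1 lies on the minus strand at chr20:33686356-33686505, MCM2 on the plus strand at chr3:127598291-127598440 and CDC6 on the plus strand at chr17:40287759-40287908. GINS1 lies on the plus strand at chr20:25407553-25407702, CDT1 on the plus strand at chr16:88803669-88803818 and RFC2 on the minus strand at chr7:74254370-74254519.
E2F1: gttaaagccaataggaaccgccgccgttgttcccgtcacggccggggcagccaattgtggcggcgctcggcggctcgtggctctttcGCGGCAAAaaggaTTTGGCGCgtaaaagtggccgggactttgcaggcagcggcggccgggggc
MCM2: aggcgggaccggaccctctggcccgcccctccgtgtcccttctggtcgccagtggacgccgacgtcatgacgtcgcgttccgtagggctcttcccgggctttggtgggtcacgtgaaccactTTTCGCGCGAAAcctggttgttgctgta
CDC6: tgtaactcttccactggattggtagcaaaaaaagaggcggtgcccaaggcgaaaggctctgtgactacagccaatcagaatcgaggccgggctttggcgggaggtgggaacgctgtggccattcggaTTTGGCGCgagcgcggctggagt
GINS1: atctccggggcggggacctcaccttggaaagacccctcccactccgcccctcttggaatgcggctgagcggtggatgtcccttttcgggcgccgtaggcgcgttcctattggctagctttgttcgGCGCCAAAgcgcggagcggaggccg
CDT1: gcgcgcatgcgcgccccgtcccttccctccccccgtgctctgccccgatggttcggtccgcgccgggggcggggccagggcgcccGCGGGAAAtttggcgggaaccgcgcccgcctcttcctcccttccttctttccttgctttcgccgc
RFC2: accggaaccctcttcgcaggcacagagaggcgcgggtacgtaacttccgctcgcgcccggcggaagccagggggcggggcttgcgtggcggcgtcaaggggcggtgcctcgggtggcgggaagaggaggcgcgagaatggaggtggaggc
The 2 matches in E2F1 lie on opposite strands, and the 2 in MCM2 overlap in a run that reads the same on both strands. RFC2 has no match in this stretch.

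Over the full RefSeq window of 250 bases before to 50 after the start, 34 of the 39 members had an entry, and GINS4, MCM4, CCNE2, RPA2 and MCM5 had none. At least 1 of the 4 E2F forms was found in 19 of the 34 members (55.9%), against 3.99% of 27305 genes with a window and 5.40% of 15843 protein-coding ones. The letters CCAAT, the core of a site bound by NF-Y, were found on either strand in 19 of 34 members (55.9%), against 39.7% of all windows and 42.1% of coding ones. The CHR element, known from genes of mitosis, was searched as TTTGAA and TTCGAA on both strands and was present in 3 members (8.82%), MCM6, RRM1 and DUT, against 19.5% of all windows and 17.5% of coding ones. The E2F forms share letters, and matches on opposite strands overlapped in MCM2 and MCM6. The windows are a description of letters near the start and do not show binding in HuT78.

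Library totals ran from 19901052 to 30816188 counts, and the 39 members together took 0.500 to 0.625% of them. The T cell genes CD3D, CD3E, CD3G and CD4 were expressed in all 13 libraries, with a lowest value of 69.6 CPM (counts scaled to a common total, on TMM-normalized library sizes, for CD3D). PLS3, a gene often gained in Sézary cells, was at 0 to 0.908 CPM, and the erythroid globin genes HBB, HBA1 and HBA2 were at 0. Of the markers of other cell types, the 5 epithelial genes summed to 97.8 to 165 CPM, led by KRT8 (48.3 to 80.5) and with KRT14 at or near 0, and the B cell gene CD79A was at 26.3 to 78.0 CPM. The CD8 T cell, monocyte, natural killer and fibroblast lists summed to at most 5.48, 4.76, 0.168 and 33.0 CPM, and the part of any of these genes in the results was not tested. Mitochondrial transcripts took 8.75 to 12.7% of counts in the 6 libraries numbered 1 or 2 and 5.22 to 8.90% in those numbered 3 or 4, apart from chaetocin replicate 3 with 15.9%. That library stood apart from the others, with a TMM factor of 0.859 against 0.989 to 1.04, and held the highest value of 8 members and the lowest of 8 others.

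Levels of the members, set per kilobase of the merged exons of all annotated transcripts for a rough comparison of genes, covered more than 2 orders of magnitude. MCM3, a subunit of the helicase ring, was highest at 199 ± 14.4 CPM per kb (SD over 13 libraries). TYMS, the thymidylate synthase, followed at 159.7 ± 8.80 and PCNA, the sliding clamp, at 136 ± 21.3 CPM per kb. RRM2, the regulatory subunit of ribonucleotide reductase, was at 112 ± 15.7 CPM per kb. The ranges of TYMS and PCNA over libraries overlapped, as did those of PCNA and RRM2. Within each library, MCM3 stood above TYMS, PCNA above RRM2 and RRM2 above MCM2 in 13 of 13 libraries, and TYMS above PCNA in 12. At the low end were POLE2, an accessory subunit of polymerase epsilon, at 3.51 ± 0.990 CPM per kb, GINS3 at 1.44 ± 0.350 and POLA2, the second subunit of polymerase alpha, at 1.06 ± 0.327. The members of 1 complex did not share 1 level, since MCM5 was at 22.5 ± 1.17 CPM per kb where MCM3 was at 199. Part of this gap comes from the length used, 7338 bases for MCM5 and 3650 for MCM3. Without the length, their means were 165 and 727 CPM. E2F1 itself was at 11.8 ± 2.44 CPM per kb, and its range over libraries overlapped those of CDC6 (17.5 ± 1.18) and ORC1 (16.0 ± 3.15).

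None of the 39 members was called in any of the 4 comparisons by the edgeR quasi-likelihood test with Benjamini-Hochberg adjustment at 0.05. The same held for DESeq2 and limma-voom. A member that was not called may still have changed, within the intervals given below. The background was the same, since the share of tested genes called was 0% in chaetocin versus DMSO, 0% in F5446 versus DMSO, 0% in romidepsin versus DMSO and 0% in chaetocin versus F5446. The smallest adjusted p over all genes in these comparisons was 0.131, 0.880, 0.255 and 0.397 in that order. The 3 comparisons against DMSO share the same 2 control libraries, so a value of either DMSO library enters each of them. In bulk RNA, a change in the share of cells in S phase cannot be told apart from a change in transcript level within each cell.

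With chaetocin most members lay slightly above DMSO, and GINS3 (0.56, from 68 to 286 counts a library) and E2F1 (0.55) had the largest log2 fold changes. Their median log2 fold change was 0.10, against 0.0070 for all tested genes, and 30 of 39 were above 0, where 51.0% of all genes were. The members' median was 0.044 with 25 above 0 without chaetocin replicate 1, beside -0.0036 for all tested genes. Without DMSO replicate 4, 24 were above 0 and the median was 0.080, beside 0.036 for all genes. Without DMSO replicate 1 it was 0.096, beside 0.045 for all genes. At an unadjusted p under 0.05 stood 2 of 39, E2F1 above and GINS1 below DMSO, beside 4.07% of all genes. The 4 chaetocin libraries all lay above both DMSO libraries for 3 members, E2F1, TK1 and RRM1 (background 5.22%), and all below for 1, GINS1 (background 6.09%). For GINS1, chaetocin replicate 2 and DMSO replicate 1 were both at 52.9 CPM when rounded. By role, the medians were 0.040 for origin licensing, 0.042 for MCM2-7, 0.13 for helicase activation, 0.079 for polymerases and primase, 0.15 for the clamp, clamp loader and RPA2, 0.076 for fragment joining and chromatin, 0.054 for nucleotide synthesis and 0.15 for the G1/S regulators.

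With F5446 the median of the members was 0.043 on the log2 scale, beside 0.0092 for all genes, and 26 of 39 were above 0 (background 51.2%). Without DMSO replicate 1 it was 0.091, and with upper-quartile scaling 0.014. E2F1 was the 1 member at an unadjusted p under 0.05, where 2.48% of all genes were. The 3 F5446 libraries lay above both DMSO libraries for 6 members, E2F1, MCM7, DUT, ORC6, PCNA and RPA2 (background 9.44%), and below both for 1, PRIM1 (background 9.12%). The 4 licensing genes and the 6 genes of the clamp, clamp loader and RPA2 were all above 0, with medians of 0.12 and 0.088. Of the 6 polymerase and primase genes, 4 were below 0, with a median of -0.091. The median was 0.20 for nucleotide synthesis, 0.12 for MCM2-7 and 0.0018 for helicase activation. It was -0.0053 for fragment joining and chromatin and 0.0066 for the G1/S regulators.

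With romidepsin at 1 µM the median was 0.031, beside 0.0054 for all genes, and 23 of 39 members were above 0 (background 51.0%). The median was -0.0035 without DMSO replicate 4, 0.0042 without romidepsin replicate 1 and 0.060 without romidepsin replicate 2, so its sign rests on single libraries. No member reached an unadjusted p under 0.05, where 2.82% of all genes did. TK1 was the 1 member whose romidepsin libraries all lay above DMSO (background 5.34%), and no member had all of them below (background 4.98%). All 4 licensing genes had a log2 fold change below 0, with a median of -0.099, and TK1, POLE2 and ORC1 had the smallest p. The other role medians were 0.061 for MCM2-7, 0.090 for helicase activation and 0.047 for polymerases and primase. They were 0.072 for the clamp, clamp loader and RPA2, -0.068 for fragment joining and chromatin, 0.068 for nucleotide synthesis and 0.041 for G1/S regulators.

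Chaetocin and F5446 at the same nominal 10 nM differed little in these genes. The median log2 difference, chaetocin minus F5446, was 0.021, beside -0.00047 for all genes, and 22 of 39 were above 0 (background 49.9%). The median was -0.0072 without chaetocin replicate 1, a number that F5446 lacks, and -0.0057 with the replicate number as a block. No member had an unadjusted p under 0.05 (background 3.40%). POLE was the 1 member higher in every chaetocin library than in every F5446 library (background 2.28%), and no member was lower in every one (background 3.11%). The 95% intervals of the difference lay within a 2-fold change in either direction for all 39 members. In the comparisons with DMSO they did so for 38 members with chaetocin (all but GINS3), 37 with F5446 (all but GINS3 and POLA2) and 37 with romidepsin (all but GINS3 and POLE2).

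**Figure D1:**
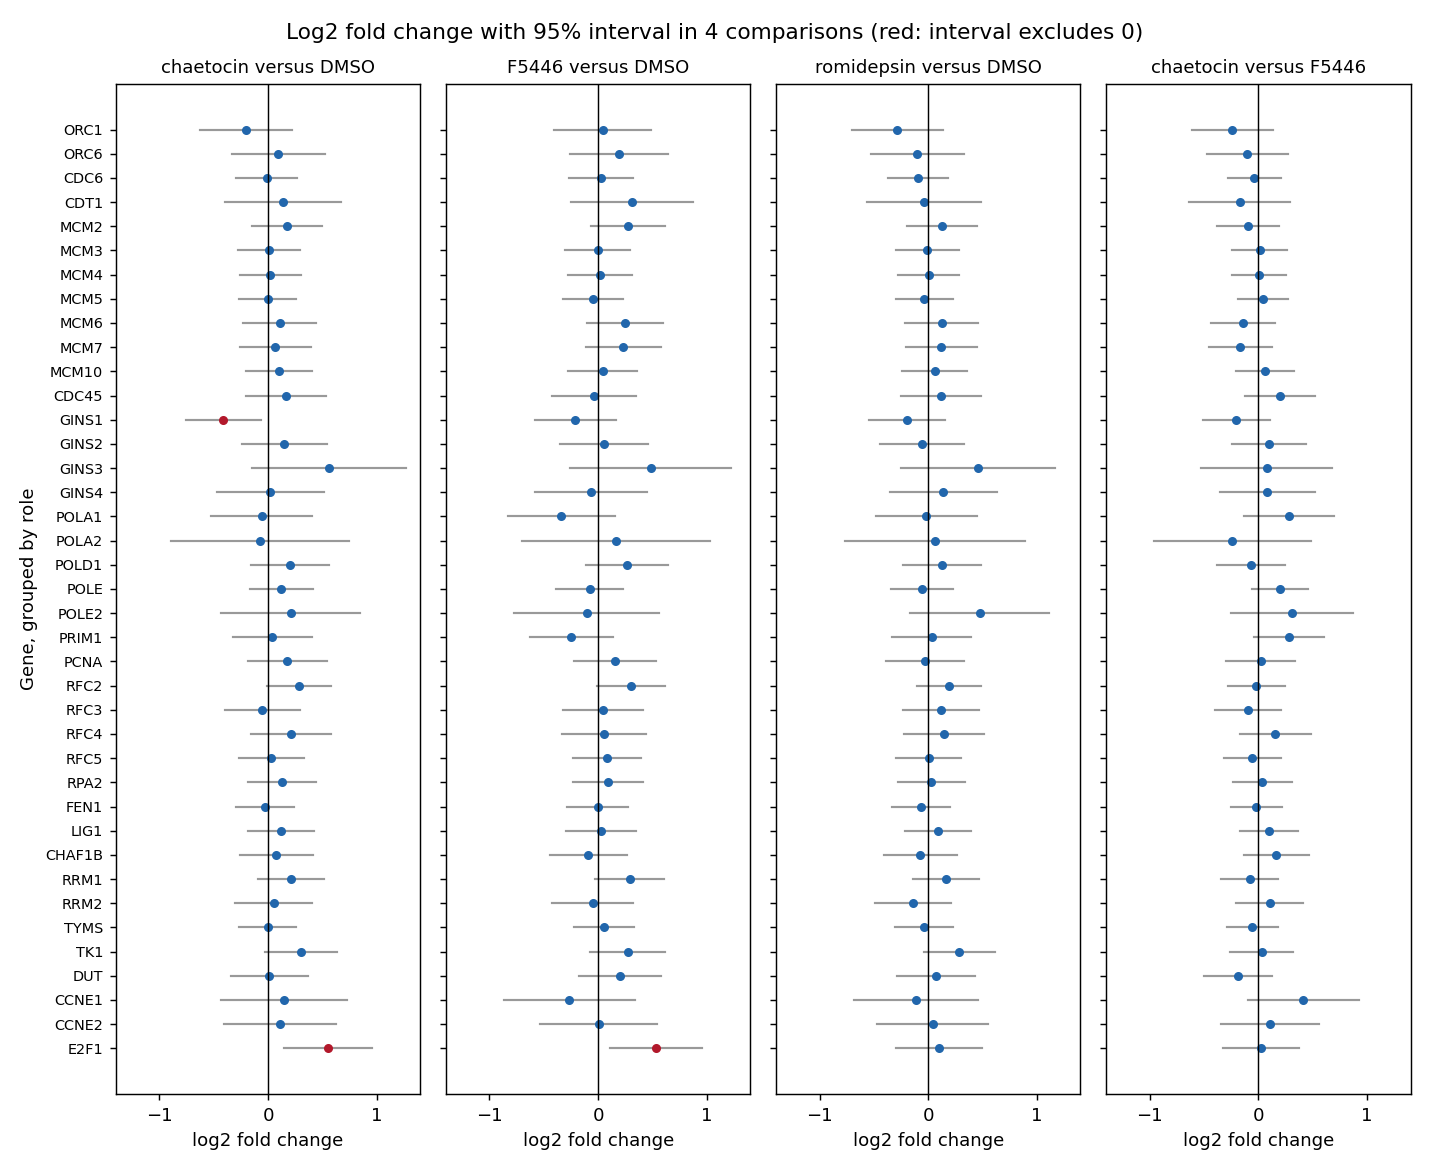
Log2 fold change (x axis) of each of the 39 members (y axis, grouped by role) in the 4 comparisons, with its 95% interval as a line. Most intervals span 0, and the red points, whose interval excludes 0 before adjustment over genes, are E2F1 and GINS1 with chaetocin and E2F1 with F5446.

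Of the G1/S regulators, E2F1 gave the smallest p among the members for both chaetocin and F5446. E2F1 was at 24.6 and 22.2 CPM with DMSO, 29.3, 37.0, 38.0 and 32.9 with chaetocin, 31.5, 31.9 and 38.0 with F5446 and 22.5, 19.6, 28.6 and 29.5 with romidepsin, each in the order of the replicate numbers. Both DMSO libraries lay below every chaetocin and F5446 library, and the romidepsin libraries overlapped them. The mean was 34.3 ± 3.99 CPM (SD, n = 4) with chaetocin and 23.4 ± 1.70 (n = 2) with DMSO, a log2 fold change of 0.55 with a 95% interval of 0.15 to 0.96 (edgeR adjusted p = 1). With F5446 it was 33.8 ± 3.63 (n = 3), a log2 fold change of 0.53 with an interval of 0.11 to 0.95 (edgeR adjusted p = 1). With romidepsin it was 25.0 ± 4.77 (n = 4), a log2 fold change of 0.099 with an interval of -0.30 to 0.50. Chaetocin and F5446 differed by 0.023 for this gene (interval -0.32 to 0.37). The unadjusted p of E2F1 under 0.05 rests on DMSO replicate 4. Without it the log2 fold changes were 0.48 for chaetocin and 0.46 for F5446, and without DMSO replicate 1 they were 0.63 and 0.60. With a term for replicate numbers (1 or 2, 3 or 4) they were 0.55 and 0.49 (edgeR unadjusted p = 0.00356 and 0.0113). For F5446 the edgeR unadjusted p was 0.0645 without F5446 replicate 4.

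CCNE1, which encodes cyclin E1, was at 20.5 and 13.2 CPM with DMSO, 24.4, 21.7, 12.01 and 16.5 with chaetocin, 16.2, 12.9 and 12.9 with F5446 and 19.8, 16.7, 11.1 and 14.7 with romidepsin. Its groups overlapped in every comparison, and its largest log2 difference was 0.41 between chaetocin and F5446 (interval -0.095 to 0.92). F5446 has no replicate 1, and this difference was 0.26 without chaetocin replicate 1, 0.29 when the fit also held a factor dividing the numbers (1 or 2, 3 or 4), and 0.23 with the replicate number as a block. Within each of the 4 groups, the libraries numbered 1 or 2 held the higher values, and the chaetocin mean was 18.6 ± 5.49 CPM (SD, n = 4).

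**Figure D2:**
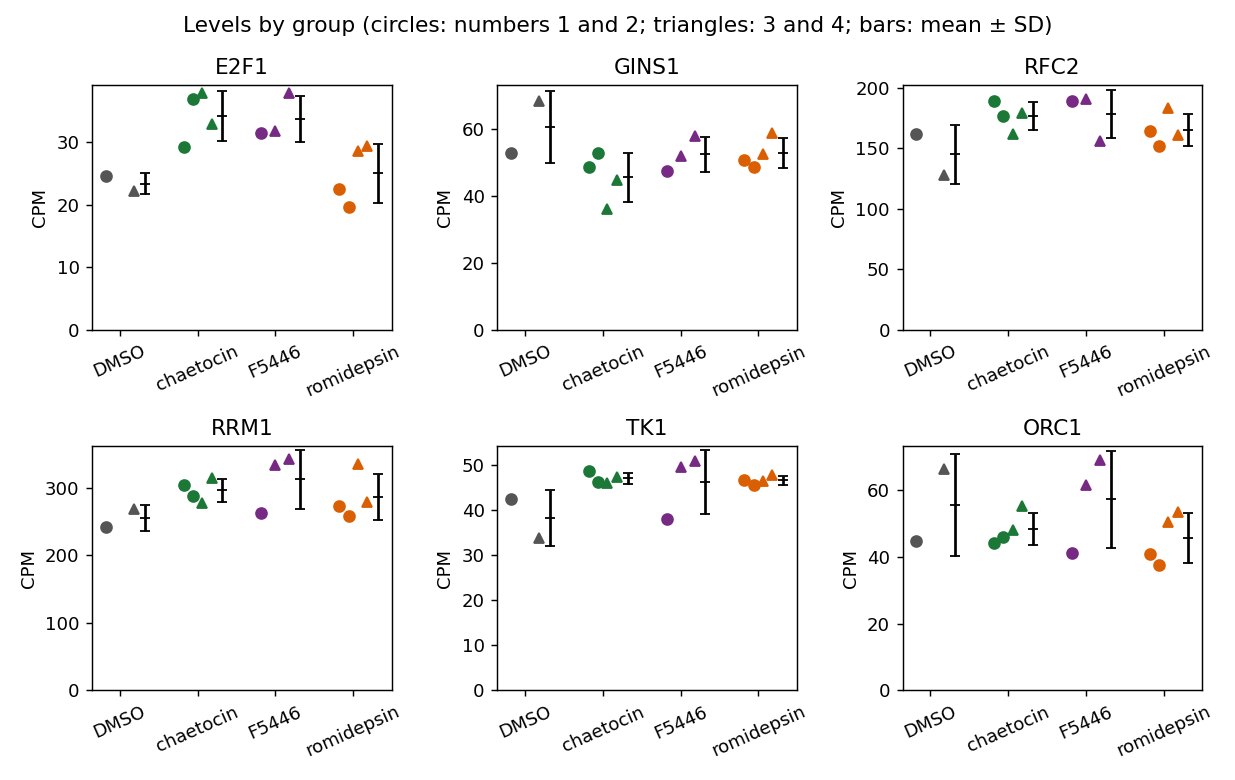
CPM (y axis, from 0) of 6 members in each library by group (x axis), with circles for replicate numbers 1 and 2, triangles for 3 and 4, and the mean ± SD beside them. E2F1 with chaetocin and F5446 lies from 29.3 to 38.0 CPM, above both DMSO libraries at 24.6 and 22.2, while the ORC1 triangles lie above the circles whatever the treatment.

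Among the genes of origin licensing, ORC1, the largest subunit of the origin recognition complex, was at 44.7 and 66.2 CPM with DMSO, 44.1, 46.0, 48.0 and 55.1 with chaetocin, 41.1, 61.5 and 68.9 with F5446 and 40.9, 37.5, 50.4 and 53.4 with romidepsin. DMSO replicate 4 was among the highest libraries and DMSO replicate 1 among the lower ones, so every treatment overlapped the controls. The log2 fold change with romidepsin was -0.28 (interval -0.71 to 0.14). It was 0.026 without DMSO replicate 4 and -0.54 without DMSO replicate 1. CDC6, the ATPase that helps load the helicase, was at 97.2 and 101 CPM with DMSO, 105, 97.7, 93.7 and 95.5 with chaetocin, 93.6, 104 and 104 with F5446 and 80.0, 92.2, 99.4 and 98.2 with romidepsin. It varied little, and its log2 fold changes against DMSO were -0.014 with chaetocin, 0.024 with F5446 and -0.097 with romidepsin.

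In the helicase ring, MCM2 was at 319 and 411 CPM with DMSO, 383, 389.7, 408 and 472 with chaetocin, 389.8, 506 and 428 with F5446 and 359.7, 369.9, 461 and 409 with romidepsin. DMSO replicate 1 was the lowest of all 13 libraries and DMSO replicate 4 the fifth from the top, so the controls spanned most of the treated libraries. The log2 fold changes were 0.18, 0.27 and 0.13 with chaetocin, F5446 and romidepsin, and all 3 intervals held 0. MCM5 was the steadiest of the ring, between 153 and 181 CPM over all libraries.

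Of the genes that activate the helicase, GINS1 was the 1 member below DMSO at an unadjusted p under 0.05, with chaetocin. GINS1, a subunit of the GINS complex, was at 52.9 and 68.3 CPM with DMSO, 48.7, 52.9, 36.0 and 44.7 with chaetocin, 47.4, 52.0 and 58.0 with F5446 and 50.8, 48.7, 52.7 and 59.0 with romidepsin. Chaetocin replicate 3 was lowest and DMSO replicate 4 highest. Chaetocin replicate 2 (52.9345 CPM) and DMSO replicate 1 (52.9393 CPM) were nearly equal, so the lack of overlap rests on a gap far below the spread. The chaetocin mean was 45.6 ± 7.23 CPM (SD, n = 4) and the DMSO mean 60.6 ± 10.9 (n = 2), a log2 fold change of -0.41 (interval -0.76 to -0.063, edgeR adjusted p = 1). It was -0.21 without DMSO replicate 4 and -0.31 without chaetocin replicate 3, and -0.21 and -0.20 in the comparisons of F5446 and romidepsin with DMSO. CDC45, which joins the ring along with GINS in the active helicase, was at 67.6 and 50.1 CPM with DMSO, 78.2, 58.0, 61.7 and 66.1 with chaetocin, 68.4, 57.4 and 46.3 with F5446 and 60.6, 64.8, 72.4 and 58.2 with romidepsin. Its groups overlapped, with log2 fold changes of 0.16, -0.037 and 0.12 against DMSO in the same order of treatments.

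POLA1, the catalytic subunit of polymerase alpha, was at 63.8 and 44.7 CPM with DMSO, 74.1, 49.8, 46.0 and 38.7 with chaetocin, 46.5, 41.3 and 40.9 with F5446 and 63.2, 60.1, 50.8 and 40.4 with romidepsin. The spread within chaetocin, from 38.7 to 74.1 CPM, was wider than the difference of any group from DMSO, and the log2 fold change with F5446 was -0.34 (interval -0.83 to 0.15). POLE, the catalytic subunit of polymerase epsilon, was at 143 and 135 CPM with DMSO, 175, 149, 142 and 138 with chaetocin, 123, 135 and 136 with F5446 and 143, 133, 114 and 144 with romidepsin. Its chaetocin mean of 151 ± 16.4 CPM (SD, n = 4) stood above the F5446 mean of 131 ± 7.46 (n = 3) without overlap, a log2 difference of 0.20 (interval -0.055 to 0.46). It was 0.12 without chaetocin replicate 1 and 0.15 with the replicate number as a block.

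PRIM1, the catalytic subunit of primase, was at 32.1 and 34.4 CPM with DMSO, 40.4, 33.3, 28.4 and 34.2 with chaetocin, 28.5, 28.9 and 26.5 with F5446 and 39.8, 29.6, 33.2 and 33.1 with romidepsin. The 3 F5446 libraries lay below both DMSO libraries and chaetocin replicate 3 lay in their range, and the difference of chaetocin from F5446 was 0.29 (interval -0.036 to 0.61). POLE2 was at 11.1 and 6.91 CPM with DMSO, 11.7, 10.2, 12.9 and 6.88 with chaetocin, 8.49, 9.97 and 6.68 with F5446 and 15.8, 15.0, 9.24 and 10.0 with romidepsin. It rested on 135 to 353 counts per library and was highest in romidepsin replicates 1 and 2, with a log2 fold change of 0.47 with romidepsin (interval -0.17 to 1.12). It was 0.17 without DMSO replicate 4 and 0.86 without DMSO replicate 1.

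At the clamp, PCNA was at 187 and 190.3 CPM with DMSO, 169, 199, 279.8 and 206 with chaetocin, 225, 204 and 202 with F5446 and 152, 172, 222 and 193 with romidepsin. Chaetocin replicate 3 was the highest library, the 3 F5446 libraries lay above both DMSO libraries, and the log2 fold changes were 0.18 with chaetocin and 0.16 with F5446. RFC2, a subunit of the clamp loader, was at 162 and 128 CPM with DMSO, 189, 176, 161 and 179 with chaetocin, 189, 191 and 156 with F5446 and 164, 152, 184 and 161 with romidepsin. DMSO replicate 4 was the lowest of all libraries, and DMSO replicate 1 lay inside the range of each treatment. The log2 fold changes of RFC2 were 0.28 with chaetocin (interval -0.014 to 0.58) and 0.30 with F5446 (interval -0.011 to 0.61). Without DMSO replicate 4 they were 0.12 and 0.14, and without DMSO replicate 1 they were 0.47 and 0.47. FEN1, the flap endonuclease of the lagging strand, was at 186 and 187 CPM with DMSO, 201, 169, 172 and 193 with chaetocin, 186, 192 and 179 with F5446 and 185, 162, 188 and 177 with romidepsin. It was among the steadiest members, with log2 fold changes between -0.068 and -0.0053 against DMSO.

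For nucleotide synthesis, TK1, the cytosolic thymidine kinase of the salvage pathway, was at 42.5 and 33.8 CPM with DMSO, 48.7, 46.2, 46.0 and 47.3 with chaetocin, 38.0, 49.6 and 50.8 with F5446 and 46.6, 45.4, 46.3 and 47.8 with romidepsin. Both DMSO libraries lay below every chaetocin and every romidepsin library, and F5446 replicate 2 lay between the controls. The romidepsin mean was 46.5 ± 0.974 CPM (SD, n = 4) and the DMSO mean 38.1 ± 6.17 (n = 2), a log2 fold change of 0.29 (interval -0.042 to 0.62), and with chaetocin it was 0.30 (interval -0.028 to 0.63). The value with romidepsin was 0.13 without DMSO replicate 4 and 0.46 without DMSO replicate 1.

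RRM1, the catalytic subunit of ribonucleotide reductase, was at 242 and 268 CPM with DMSO, 304, 288, 277 and 315 with chaetocin, 262, 333 and 342 with F5446 and 273, 258, 335 and 279 with romidepsin. The chaetocin libraries lay above both controls, and F5446 replicate 2 and romidepsin replicate 2 overlapped them. The log2 fold changes were 0.21 with chaetocin and 0.29 with F5446 (interval -0.026 to 0.61). RRM2, its partner subunit, was at 573 and 651 CPM with DMSO, 612, 522, 771 and 636 with chaetocin, 467, 645 and 662 with F5446 and 537, 479, 634 and 568 with romidepsin. All groups overlapped, and the log2 fold changes of RRM2 were 0.054, -0.050 and -0.14 with chaetocin, F5446 and romidepsin, so that the 2 subunits of 1 enzyme did not show the same order of groups. TYMS, the thymidylate synthase, was at 415 and 375 CPM with DMSO, 404, 391, 359 and 422 with chaetocin, 408, 413 and 407 with F5446 and 369, 362, 393 and 412 with romidepsin. It was nearly level, with log2 fold changes of -0.0035, 0.052 and -0.040 in the same order.

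The other genes of these pathways gave the same count, with 0 called among 40 further replication genes, 33 further genes of nucleotide synthesis and 27 further G1/S regulators in every comparison by edgeR. At an unadjusted p under 0.05 stood 3, 2 and 1 genes of these lists with chaetocin, 1, 1 and 0 with F5446, 1, 1 and 0 with romidepsin, and 1, 1 and 3 between chaetocin and F5446. The share of all tested genes at that p was 4.07, 2.48, 2.82 and 3.40% in the same order. With chaetocin, the smallest p of the replication list belonged to CDC7, the kinase that fires origins, at 69.2 ± 8.35 CPM (SD, n = 4) against 88.0 ± 10.9 (n = 2), a log2 fold change of -0.35. In the nucleotide list it belonged to CMPK1, a nucleoside monophosphate kinase, at 185 ± 5.72 against 241 ± 12.7 CPM, a log2 fold change of -0.38. In the G1/S list it belonged to MYBL2, a transcription factor of the G1/S and G2/M programs, at 389 ± 51.6 against 281 ± 60.5 CPM, a log2 fold change of 0.47 (edgeR adjusted p = 1). The direction was thus below DMSO for the first 2 genes and above it for MYBL2, which in chaetocin was also 0.35 above F5446.

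With F5446 the smallest p of the replication list belonged to CHAF1A, the large subunit of the chromatin assembly factor, at 123 ± 6.90 CPM (SD, n = 3) against 188 ± 26.4 (n = 2), a log2 fold change of -0.61 (edgeR adjusted p = 1). Its partner CHAF1B, a member of the 39, was between 48.8 and 60.2 CPM with F5446 and at 53.6 and 63.7 with DMSO, a log2 fold change of -0.089. GART, an enzyme of purine synthesis, had a log2 fold change of -0.36 and RBL1, the p107 pocket protein, one of -0.30. With romidepsin CHAF1A (-0.44) and GART (-0.30) were again first, beside E2F5 at 0.55, and the DMSO libraries behind these values are the same. Between chaetocin and F5446, POLD4, a small subunit of polymerase delta, had a log2 difference of -1.99 at very low levels (0.534 ± 0.553 and 2.17 ± 0.698 CPM), and DCK, the deoxycytidine kinase, one of -0.31.

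More members were called between replicate numbers than between treatments, but the tests differed in precision. The numbers set 7 libraries against 6, while each comparison with DMSO had 2 controls. For CDT1 the standard error was 0.086 between the numbers and 0.25 for chaetocin versus DMSO. The fit behind the second value held no term for the numbers, so their difference stayed in its spread. In that fit chaetocin versus F5446, without DMSO, had 0.22 for CDT1. With the term, 5 of 39 members had an edgeR unadjusted p under 0.05 for chaetocin versus DMSO, against 2 without it. None of them was called, and 7 of all tested genes were called where the main fit called 0. The counts therefore do not show which of these differences is larger. With numbers 3 and 4 set against 1 and 2 beside the group term, a division chosen after the data had been seen, 10 of 39 members were called by edgeR. The labels do not say what the numbers stand for. Of these, 6 were higher in numbers 3 and 4 (CDT1, ORC1, RRM2, POLD1, MCM6 and MCM2), where 8.07% of all tested genes were higher, and 4 were lower (CCNE1, CCNE2, POLA1 and GINS4), where 7.69% were lower. In all, 23 of 39 were above 0, against 47.1% of all genes. The libraries did not overlap for 3 members that were higher, ORC1, MCM2 and MCM3 (background 3.23%), and for none that was lower (background 2.25%).

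CDT1, the licensing factor, had the largest rise. It ran from 159 to 225 CPM with a median of 201 in the 7 libraries numbered 3 or 4 and 116 to 169 with a median of 137 in the 6 numbered 1 or 2, a log2 difference of 0.52 (interval 0.35 to 0.70, edgeR adjusted p = 9.25e-05). ORC1 ran from 48.0 to 68.9 CPM with a median of 55.1 in the 7 libraries numbered 3 or 4 and 37.5 to 46.0 with a median of 42.6 in the 6 numbered 1 or 2, a difference of 0.42 (adjusted p = 0.00178). The 2 sets of ORC1 values did not touch, while those of CDT1 overlapped because chaetocin replicate 3, at 159 CPM, lay below chaetocin replicate 2. MCM2 ran from 408 to 506 CPM with a median of 428 in the 7 libraries numbered 3 or 4 and 319 to 389.8 with a median of 377 in the 6 numbered 1 or 2, a difference of 0.25 (adjusted p = 0.0171). MCM6, its neighbor in the ring, ran from 243 to 313 CPM with a median of 280.3 in the 7 libraries numbered 3 or 4 and 204 to 250.4 with a median of 233 in the 6 numbered 1 or 2, a difference of 0.27. RRM2 (0.30) and POLD1, the catalytic subunit of polymerase delta (0.28), were also higher, the latter at 70.0 to 88.5 CPM with a median of 76.3 in the 7 libraries numbered 3 or 4 and 54.7 to 75.0 with a median of 66.4 in the 6 numbered 1 or 2.

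Members called lower in numbers 3 and 4 were 4 of 39, a share near the 7.69% of all tested genes, and included both cyclin E genes. CCNE1 ran from 11.1 to 16.5 CPM with a median of 12.9 in the 7 libraries numbered 3 or 4 and 16.2 to 24.4 with a median of 20.1 in the 6 numbered 1 or 2, a log2 difference of -0.54 (edgeR adjusted p = 0.00346). CCNE2 ran from 20.6 to 29.7 CPM with a median of 25.1 in the 7 libraries numbered 3 or 4 and 27.4 to 40.0 with a median of 33.0 in the 6 numbered 1 or 2, a difference of -0.44 (adjusted p = 0.00892). The overlap of the sets was small in both, and E2F1, the other G1/S regulator, had a difference of 0.18 in the other direction that was not called (adjusted p = 0.292). POLA1 ran from 38.7 to 50.8 CPM with a median of 41.3 in the 7 libraries numbered 3 or 4 and 46.5 to 74.1 with a median of 61.7 in the 6 numbered 1 or 2, a difference of -0.43, and GINS4 from 15.5 to 24.1 CPM with a median of 19.9 in the 7 libraries numbered 3 or 4 and 20.9 to 31.1 with a median of 25.6 in the 6 numbered 1 or 2, a difference of -0.39. The catalytic subunits of polymerases alpha and delta thus moved in opposite directions between the sets.

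By role, all 4 licensing genes and 5 of the 6 ring subunits were above 0, with medians of 0.24 and 0.15 on the log2 scale. Of the 6 helicase activation genes, 1 was above 0 (median -0.17), and of the 6 polymerase and primase genes also 1, POLD1 (median -0.23). All genes tested had a median of -0.029. Of 40 other replication genes, 3 were called higher and 3 lower, with 26 below 0 and a median of -0.065. The 33 other nucleotide synthesis genes had 3 called higher and 7 lower (median -0.032). Among the 27 other G1/S regulators, 4 were called higher and 3 lower (median 0.017). The background was 8.07% higher and 7.69% lower. Of the 34 mitosis genes, 13 were called higher and 1 lower, with a median of 0.21. The 13 mitochondrially encoded protein genes had a median of -0.51 with none called. The share of mitochondrial transcripts moved with the replicate number, as given above, and its part in these differences was not tested. Without chaetocin replicate 3 the count was 11. Fewer members were called without DMSO replicate 1 or without DMSO replicate 4, with differences of 0.46 and 0.47 for CDT1. The DMSO library that remains is then fitted by its own group term. Both runs thus rest on the treated libraries alone and are not separate checks.

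**Figure D3:**
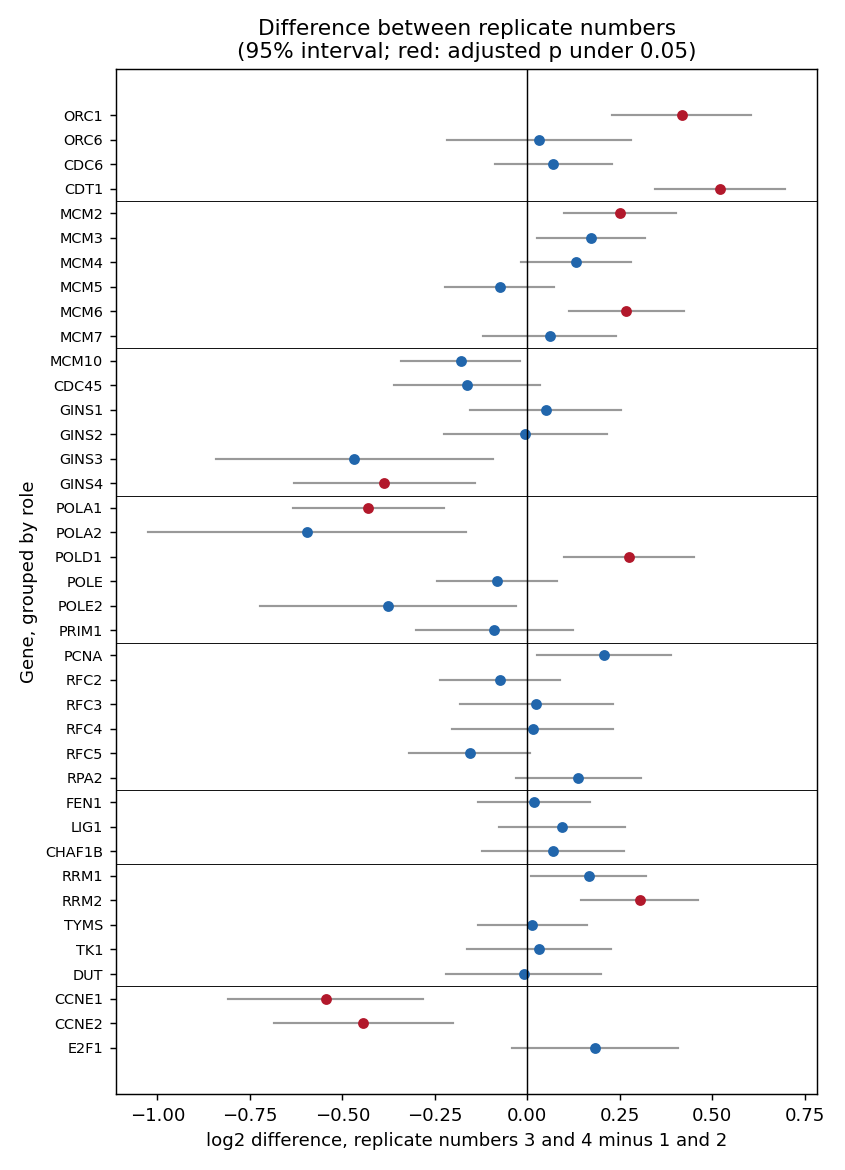
Log2 difference (x axis) of each member (y axis, grouped by role) between libraries numbered 3 or 4 and those numbered 1 or 2, adjusted for treatment, with its 95% interval as a line and the called members in red. The first 2 blocks, licensing and MCM2-7, lie mostly to the right with CDT1 at 0.52, and CCNE1 at -0.54 and CCNE2 at -0.44 lie to the left.

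Within each set of replicate numbers, the members' median against DMSO stayed near 0. For chaetocin it was 0.059 in numbers 1 and 2 and 0.056 in numbers 3 and 4, and for F5446 0.013 and 0.098. For romidepsin the median was -0.049 in numbers 1 and 2 and 0.096 in numbers 3 and 4, and for chaetocin against F5446 0.068 and -0.045. All tested genes had medians of 0.0056 and -0.030 for chaetocin, near 0 and 0.012 for F5446, and -0.0096 and 0 for romidepsin. For chaetocin against F5446 they were 0.0069 and -0.048. The members' signs for the last 2 comparisons thus differed between the sets, but their -0.045 lay close to that of all genes. Each set rests on 1 DMSO library and, in numbers 1 and 2, on 1 F5446 library.

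The members did not move as 1 block over the libraries. The correlation of each member's log2 CPM with the mean of the other 38 over 13 libraries had a median of 0.21, from -0.37 for GINS1 to 0.89 for RFC2. It was above 0.5 for 6 members (RFC2, TYMS, TK1, RFC5, FEN1 and RRM1) and below 0 for 11, and these points share library, depth and scaling. Without chaetocin replicate 3 the median was 0.22 and GINS1 was at -0.62. It was then above 0.5 for 7 members, with MCM7, LIG1 and E2F1 joining and FEN1 and RRM1 leaving, and below 0 for 8. The mean of the centred log2 CPM of all members was -0.063 with DMSO (n = 2), 0.033 with chaetocin (n = 4), 0.018 with F5446 (n = 3) and -0.016 with romidepsin (n = 4), against an SD between libraries of a group of 0.048. The median SD of a member over the 13 libraries was 0.19 on the log2 scale, against 0.22 in the 8685 tested genes that averaged 10 CPM or more. Members with an E2F match in their window (19) and without one (15) had medians of 0.11 and 0.10 with chaetocin, 0.052 and 0.042 with F5446 and 0.064 and 0.031 with romidepsin. Between chaetocin and F5446 these medians were -0.038 and 0.029, of opposite sign, and between the replicate numbers 0.051 and 0.018, and the differences between the 2 sets of members were not tested.

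**Figure D4:**
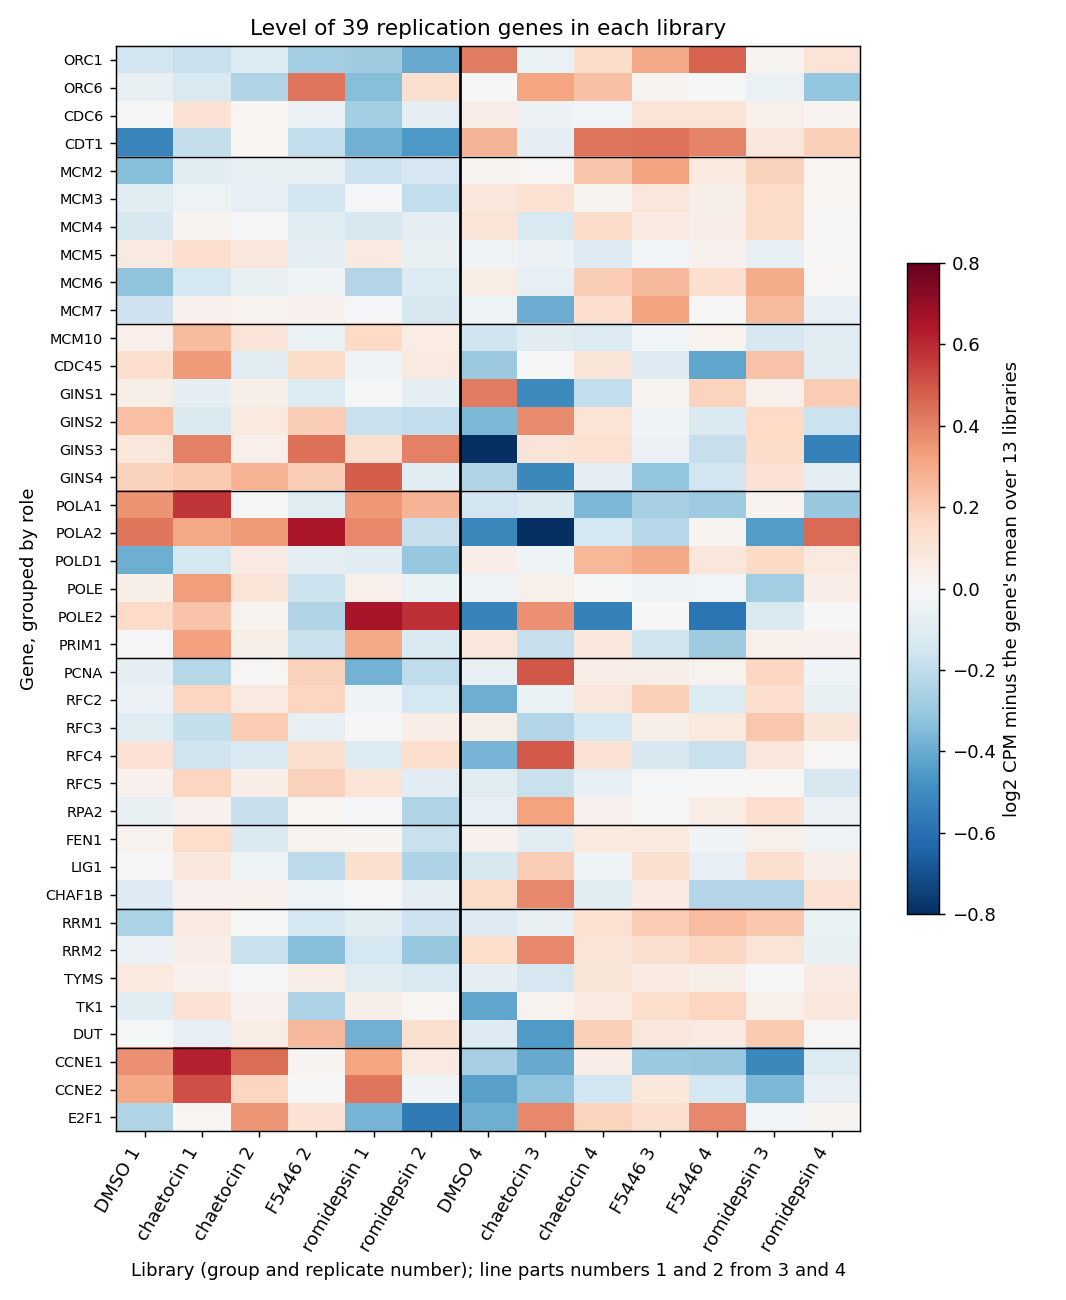
Log2 CPM of the 39 members (rows, grouped by role) in 13 libraries (columns, numbers 1 and 2 left of the line and 3 and 4 right of it), each minus the member's mean, with the color scale limited to 0.8 in either direction. ORC1 and CDT1 at the top are mostly blue on the left and red on the right, CCNE1 and CCNE2 near the bottom are mostly the reverse, and no treatment forms a block of its own.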

How the data were processed

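RNA was taken with a column kit including a DNase step, and libraries were made with a kit for human FFPE RNA, per the labels' protocols. The submitters' processing notes name bcl2fastq 2.20.0.422, cutadapt 1.8.1, HTSeq 0.6.1 and the build hg19. Which aligner, gene annotation and strand option served is not given in the sources used here, and reads of overlapping or antisense genes therefore cannot be told apart. The deposited values are raw counts per gene, with no normalization by the authors. Samples were grouped by title. The treatment tags of the F5446 libraries end in different digits, and their titles, which agree on the name, were used.

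Genes were filtered by edgeR's filterByExpr rule, and all 13 libraries were fitted with group as the only term by edgeR 4.0.16 in R 4.3.3, with TMM factors and a robust quasi-likelihood fit. The p-values are two-sided, adjusted by Benjamini-Hochberg over all 17252 tested genes, at 0.05. CPM carry the SD between libraries, and log2 CPM used a prior count of 2. Intervals are at 95%. Precision is limited by the 2 DMSO libraries and, for GINS3, POLA2 and POLE2, by low counts. Whether the replicates came from separate cultures is not stated in the labels, and the p-values then reflect only the variation among these libraries, which may be technical. The highest correlation of log2 CPM between libraries of a group was 0.973, and none was treated as a repeat of another.

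Library values are given for 1 or 2 members of most roles, for the 3 members with the smallest p in each comparison and for members called between replicate numbers (as ranges). From each further pathway list the gene with the smallest p is named. MCM5, CHAF1B and the genes in the account of levels were named after their values were seen. The members, lists, roles and motifs were chosen with earlier results of these data known. Lengths per kilobase are merged exons of GENCODE 29 (GRCh38), matched by gene ID, which may differ from the authors' annotation. Start windows are from RefSeq (GRCh38.p14), and no position in the deposited counts was used. The scripts were tested on simulated counts. Alternatives were DESeq2 1.42.0, limma-voom (limma 3.58.1), other scalings and filters, a non-robust fit, a fit restricted to the compared groups, the replicate number as a block, a term for replicate numbers, and each library left out in turn.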

Additional observations from a re-analysis of the deposited data

How the results depend on the processing

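No member was called in any of the 4 treatment comparisons under any alternative run. The median for chaetocin against DMSO ran from 0.044 (without chaetocin replicate 1) to 0.099 when each library was left out in turn. The same range was 0.035 to 0.091 for F5446, -0.0035 to 0.060 for romidepsin and -0.0072 to 0.027 for chaetocin against F5446, so the last 2 medians turned. These ranges are of the members alone. The median of all tested genes moved too, for chaetocin against DMSO to 0.045 without DMSO replicate 1. Other scalings, filters and tools gave 0.014 to 0.054 for F5446 and 0.015 to 0.049 for chaetocin against F5446. Directions of single genes that were not called also turned: ORC1 with romidepsin ran from -0.54 to 0.026, the last without DMSO replicate 4, and E2F1 between chaetocin and F5446 ran from -0.025 to 0.11. Of the 10 members called between replicate numbers, all were also called by DESeq2 (11 in all), limma-voom (11) and both other scalings (10 and 10). Leaving out single libraries gave 6 to 11, with 6 without DMSO replicate 1 or DMSO replicate 4, where the fit assumes that the lone DMSO library varies like the other groups. Over all genes, DESeq2 called 9, 1, 1 and 2 genes for chaetocin, F5446 and romidepsin against DMSO and for chaetocin against F5446, where edgeR called 0, and edgeR with no filter called 9, 0, 5 and 9. Same-numbered libraries deviated together only weakly, with correlations over genes of 0.15, 0.065 and 0.078 for the 3 pairs of chaetocin and F5446 and 0.071 to 0.16 for the 5 pairs with DMSO. All 8 were positive, 5 of them over 0.1, but not every pair of the only comparison with 3 pairs was, so the numbers were not taken as a pairing. The 2 DMSO libraries deviate from their mean by equal and opposite amounts, so the 5 pairs with DMSO are not separate evidence. The main fit thus holds no term for the numbers, although the groups are unbalanced in them. With a replicate block the medians were 0.088, 0.065, 0.032 and -0.0057 in the order above, 0 members were called, and over all genes 10, 0, 1 and 11 were. GINS3, POLA2 and POLE2, with 55 to 353 counts a library, had the widest intervals.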
